A study of Mus musculus with 2 samples.

Results

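CHD2, an ATP-dependent chromatin remodeller of the chromodomain-helicase family, was mapped by ChIP-seq (chromatin immunoprecipitation followed by sequencing) in ES-E14 mouse embryonic stem cells. ES-E14 is a male line of the 129/Ola strain. The samples form 1 group of 2 libraries, which the labels call biological replicates, with no treatment or genotype to compare. Both name the same biosample record, so the spread between them may be partly technical. Only peak lists were available for analysis, so the markers of the cell type could not be checked and the read depth is unknown. The peaks described here lie at an intermediate distance from genes: over 1000 bp and at most 10000 bp from the nearest outer 5′ end of a protein-coding gene. They were chosen by summit position alone and number 1712 of the 8282 peaks (20.7%, exact 95% interval 19.8 to 21.6%) of the optimal mm10 list. That list holds the peaks that passed the authors' test of reproducibility between replicates (the irreproducible discovery rate, IDR). For comparison, 2893 peaks lay within 1 kb of a 5′ end (promoter peaks) and 3656 lay over 10 kb away (distal peaks). A further 21 lay on the mitochondrial genome or unplaced sequence. The intervals reflect counting alone, since peaks are not replicates.

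CHD2 moves nucleosomes along DNA and is known from mammalian cells as a remodeller of active genes. The region 1 to 10 kb from an annotated 5′ end holds different kinds of element: proximal enhancers upstream, alternative promoters and intronic enhancers within the gene, and, for short genes, the DNA past the site where the transcript ends. A gene with several promoters is often transcribed mainly from an internal start. Its main promoter then appears in the gene body when distance is measured from the outermost end. NF-Y, a trimeric factor that binds CCAAT, and BANP, which binds a palindromic element with CGCG at its centre, are known activators of CpG-rich promoters.

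Sequences are shown for peaks at annotated internal starts and for peaks away from any start. The first set comes from internal promoters. These are the 100 bases before a listed internal start, on the gene's strand, of 6 genes (RefSeq, build GRCm38.p6). They are all those among the 10 strongest gene-body peaks whose summit falls inside that stretch. Capitals mark matches to consensus sequences that were searched on both strands: CTCGCGAG (the core of the BANP element), TCGCGA (a 6-letter palindrome that lies inside it), the CCAAT box, which reads ATTGG when it lies on the other strand, and TGAGTCA (AP-1). A GC box in the Zkscan2 stretch is in capitals as well.
Cenpt (chr8:105852009-105852108, minus strand): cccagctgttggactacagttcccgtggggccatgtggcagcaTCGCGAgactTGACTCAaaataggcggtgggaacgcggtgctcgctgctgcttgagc
Ireb2 (chr9:54863655-54863754, plus strand): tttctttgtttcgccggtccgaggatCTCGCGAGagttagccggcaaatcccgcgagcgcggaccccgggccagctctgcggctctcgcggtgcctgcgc
Btbd10 (chr7:113369340-113369439, minus strand): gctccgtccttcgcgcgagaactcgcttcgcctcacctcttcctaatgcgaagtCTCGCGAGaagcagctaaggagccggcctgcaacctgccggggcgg
Rbm26 (chr14:105177315-105177414, minus strand): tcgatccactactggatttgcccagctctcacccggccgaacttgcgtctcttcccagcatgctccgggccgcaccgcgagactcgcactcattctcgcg
Zkscan2 (chr7:123500627-123500726, minus strand): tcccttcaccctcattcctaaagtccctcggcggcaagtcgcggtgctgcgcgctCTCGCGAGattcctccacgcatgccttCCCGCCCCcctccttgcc
Ercc6l2 (chr13:63815140-63815239, plus strand): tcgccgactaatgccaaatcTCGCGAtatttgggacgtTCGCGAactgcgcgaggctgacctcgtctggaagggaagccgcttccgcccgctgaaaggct
Ireb2, Btbd10 and Zkscan2 carry the whole 8-letter CTCGCGAG, Cenpt and Ercc6l2 only the palindrome (Cenpt beside an AP-1 match), and Rbm26 holds no match. CTCGCGAG and TCGCGA were added to the search after the values were seen.

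The second set comes from peaks with no annotated start within 1 kb. The genome sequence used here is mm9, so these are plus-strand windows of 101 bases centred on summits of the separate mm9 list, named by the nearest gene. Added to the capitals are CTCAACC, which reads GGTTGAG when it lies on the other strand, and GTCGCGACC, 2 short runs that were noticed at the summits after the values were seen. GTCGCGACC contains the 6-letter palindrome. Background knowledge places CTCAACC in the terminal inverted repeats of the hAT-Charlie family of DNA transposons. No repeat annotation was used here.
Naglu (chr11:100928015-100928115, mm9): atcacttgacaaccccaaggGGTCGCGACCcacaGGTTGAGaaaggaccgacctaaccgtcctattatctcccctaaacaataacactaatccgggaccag
Stambpl1 (chr19:34268300-34268400, mm9): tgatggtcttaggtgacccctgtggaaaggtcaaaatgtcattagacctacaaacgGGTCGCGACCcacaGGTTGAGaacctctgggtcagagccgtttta
4930579G22Rik (chr5:130394088-130394188, mm9): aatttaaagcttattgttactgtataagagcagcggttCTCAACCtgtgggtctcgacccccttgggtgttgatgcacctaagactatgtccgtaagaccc
Pou5f1 (chr17:35640970-35641070, mm9): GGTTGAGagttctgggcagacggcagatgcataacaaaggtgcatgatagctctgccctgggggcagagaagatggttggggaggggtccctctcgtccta
Ccnd1 (chr7:152129390-152129490, mm9): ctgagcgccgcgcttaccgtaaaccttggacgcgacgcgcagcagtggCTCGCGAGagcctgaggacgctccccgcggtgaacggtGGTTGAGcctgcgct
Naglu and Stambpl1 share 1 arrangement, with the long CGCG run on the left and GGTTGAG a few bases to its right. The 4930579G22Rik window (a RefSeq synonym of Nupr1l) has CTCAACC on the plus strand. In the Pou5f1 window the run lies at the very edge, away from the summit. Ccnd1 holds both the BANP core and a GGTTGAG.

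The third set shows windows without the transposon-like run: 3 of the strongest with no start nearby, 3 upstream of MHC class II genes, 1 each at Srf and Nanog, and 1 at the internal promoter of Sp2, whose summit lies outside the 100 bases before its listed start. Capitals are as above, with AGCCAATCA an extended CCAAT box and ACATTCC the Tead element.
Mtfp1 (chr11:3996795-3996895, mm9): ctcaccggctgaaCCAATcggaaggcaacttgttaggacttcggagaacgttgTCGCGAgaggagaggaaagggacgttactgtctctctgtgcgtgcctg
Clec11a (chr7:51560249-51560349, mm9): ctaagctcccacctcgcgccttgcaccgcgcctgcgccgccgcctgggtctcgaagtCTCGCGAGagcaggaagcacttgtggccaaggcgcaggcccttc
Srbd1 (chr17:86550348-86550448, mm9): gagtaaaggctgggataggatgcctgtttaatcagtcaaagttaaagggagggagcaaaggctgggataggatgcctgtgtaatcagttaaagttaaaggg
H2-Aa (chr17:34428659-34428759, mm9): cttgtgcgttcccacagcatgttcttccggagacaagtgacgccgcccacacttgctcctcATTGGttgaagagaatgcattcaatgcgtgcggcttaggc
H2-Aa (chr17:34433165-34433265, mm9): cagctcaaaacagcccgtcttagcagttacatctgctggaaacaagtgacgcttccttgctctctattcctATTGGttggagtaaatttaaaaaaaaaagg
H2-Ab1 (chr17:34398603-34398703, mm9): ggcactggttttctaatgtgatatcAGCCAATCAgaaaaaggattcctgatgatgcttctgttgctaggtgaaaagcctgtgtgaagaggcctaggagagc
Sp2 (chr11:96839090-96839190, mm9): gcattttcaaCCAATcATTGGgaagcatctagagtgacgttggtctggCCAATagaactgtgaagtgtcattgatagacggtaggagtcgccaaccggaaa
Srf (chr17:46689812-46689912, mm9): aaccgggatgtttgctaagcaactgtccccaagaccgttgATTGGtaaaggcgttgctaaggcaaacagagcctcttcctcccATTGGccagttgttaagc
Nanog (chr6:122652556-122652656, mm9): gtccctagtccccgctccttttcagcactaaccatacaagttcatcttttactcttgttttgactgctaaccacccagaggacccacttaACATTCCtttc
Each of the 3 MHC class II windows has 1 CCAAT box. The Mtfp1 window has a CCAAT box and the palindrome, Clec11a has the BANP core, Sp2 has 3 CCAAT boxes and Srf has 2. The Srbd1 window matches no searched consensus and carries a run of 23 bases 2 times within its own 101.

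Of the 1712 peaks, 1005 (58.7%) lay on the gene-body side and 707 (41.3%, 39.0 to 43.7%) upstream. Near the gene the gene-body side was fuller. From 1 to 2 kb it held 277 peaks and the upstream side 153. From 5 to 10 kb the 2 sides held 72.2 and 63.2 peaks per kb. Of the 277 peaks 108 lay within 1 kb of another listed coding start, and of the 153 upstream ones 7. The rest were 169 on the gene-body side and 146 upstream. A gene's own internal starts can lie only on the gene-body side, since distance is taken from the outermost end, so leaving out the peaks near them can only lower that side. The 300000 relaxed peaks of the pooled replicates, which passed no test of reproducibility, give a background for position. Outside its strongest 8282, 18.5% lay 1 to 10 kb from a 5′ end, and of those 42.8% were upstream. From 1 to 2 kb this background too was fuller on the gene-body side, with 10.3% of its peaks in the band against 7.39% upstream, starts included. The same background had 5.28% of its peaks at promoters, where the optimal list had 34.9%. Distal peaks made up 44.1% of the optimal list and 76.2% of that background. The share at 1 to 10 kb was thus slightly above the background, with promoters far above theirs and distal peaks far below. These shares are parts of a whole, so a higher promoter share lowers the others.

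**Figure D1:**
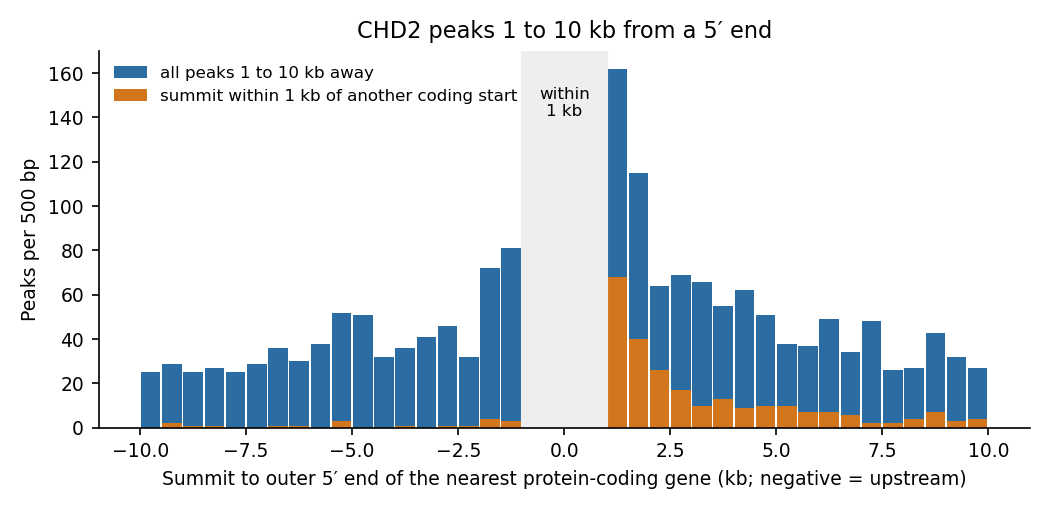
Number of CHD2 peaks per 500 bp against the distance in kb from the outer 5′ end of the nearest protein-coding gene (negative is upstream, the grey band is the excluded 1 kb). Orange marks summits within 1 kb of another listed coding start, which are common on the gene-body side close to the gene (108 of 277 peaks from 1 to 2 kb) and rare upstream (7 of 153).

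On the gene-body side, 783 peaks (77.9%) lay inside the gene and 222 (22.1%, 19.6 to 24.8%) past its far end. Of the upstream peaks, 129 (18.2%) lay inside another protein-coding gene. On the mm9 list, whose annotation gives exons, 61 of 299 peaks inside their gene had the summit in an exon (20.4%) and 238 in an intron. Some peaks crowd together: 162 overlapped the peak before them, and joining summits at most 500 bp apart left 1533 separate regions. Most (91.6%) had the same width of 360 bp.

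The median deposited signal was 27.0 for these peaks, 40.2 for promoter peaks and 26.7 for distal peaks. This signal is the peak caller's own value and ratios are taken only within 1 list. In replicate 1's own list the medians were 14.7, 22.0 and 13.96, and in replicate 2's 15.1, 21.0 and 14.5. The 2 replicate lists thus have like medians, and their values are set side by side further on as a description. Promoter peaks were 1.49, 1.49 and 1.39 times these peaks in the 3 lists. The ratio to distal peaks was 1.01, 1.06 and 1.04, so by median signal the 1 to 10 kb class resembled distal peaks more than promoter peaks. In recurrence too it stood near distal peaks. Of these peaks 46.6% (44.2 to 49.0%) were among the 8282 strongest of both replicates, against 67.7% of promoter and 44.1% of distal peaks. A further 17.9% were among the strongest of replicate 1 only, 22.8% of replicate 2 only, and 12.7% of neither.

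Peaks at listed starts of coding genes were more frequent among the strongest of the 1712 than among the weakest. A summit within 1 kb of another coding start was found for 264 peaks (15.4%, 13.7 to 17.2%), 245 of them on the gene-body side (24.4% of that side) and 19 upstream (2.69%). In 236 of the 264 the start belonged to the nearest gene itself, and in 174 the summit was within 250 bp of it. Among distal peaks the share was 2.22%, although the start of a second promoter over 10 kb downstream would be counted there in the same way. Of the strongest 171 peaks 61 were at such a start (35.7%, 28.5 to 43.3%), and of the weakest 171, 21 (12.3%, 7.77 to 18.2%). The median signal was 35.1 at coding starts and 25.6 with no start, a ratio of 1.37. In replicate 1 the ratio was 1.42 (19.1 against 13.5) and in replicate 2 it was 1.15 (16.7 against 14.5). The difference was thus in the same direction but smaller in replicate 2. With no start nearby (1042 peaks), the medians were 0.96, 0.96 and 1.00 times the distal ones. A further 306 peaks (17.9%) lay at genes whose starts were not listed in the table used.

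The strongest gene-body peaks lay at internal starts of this kind. At Cenpt, which encodes a kinetochore protein that binds centromeric DNA, the peak 3006 bp into the gene had a signal of 427.5 (245.1 in replicate 1 and 182.3 in replicate 2). It lay 72 bp from the listed internal start shown above. At Sp2, a zinc-finger transcription factor that cooperates with NF-Y, the peak at +5128 had 392.3 (195.4 and 201.4). Ireb2, iron regulatory protein 2, had 351.2 at +1040 (193.1 and 157.7), 57 bp from its start. Cenpt, Sp2 and the upstream Dync1h1 peak described further on were the 3 highest of the 1712 in each replicate.

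Smim10l1 followed with 329.3 at +6573 (174.6 and 152.2). Btbd10 had 291.1 at +2133 (180.6 and 118.8) and Rbm26, an RNA-binding protein, had 286.9 at +3709 (170.5 and 116.6). Zkscan2, a zinc-finger protein, had 283.9 at +4393 (146.5 and 138). Ercc6l2, a helicase-like protein of DNA repair, had 266.5 at +4211 (161 and 110.9). The summits at Btbd10, Rbm26, Zkscan2 and Ercc6l2 lay 55, 16, 58 and 50 bp from their listed starts. E230025N22Rik (320.6; 144 and 182.2) and Pura (315; 173.8 and 143.5), which encodes a nucleic-acid-binding protein, complete the 10 strongest, and no coding start was listed for them in the table used. The lowest replicate value among the 10 was the 110.9 of Ercc6l2.

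Upstream, the strongest peak was at Dync1h1, the heavy chain of cytoplasmic dynein, with 426.9 at −9751 (220 and 211.7). It was 270 bp from the start of the long non-coding RNA B930059L03Rik. Mtfp1, a protein of mitochondrial fission, had 296.9 at −1429 (159.8 and 137.5) with no listed start within 1 kb. Srbd1 had 260.6 at −5900 (62.31 and 137.6), the pair of replicates least alike among the 10 strongest upstream peaks. Ddx19b (193.4 at −2077; 97.9 and 92.85) and Yod1 (190 at −1226; 91.71 and 93.68) were in fact at the starts of neighbours, 14 bp from that of Aars, alanyl-tRNA synthetase, and 53 bp from that of Pfkfb2. Gnb5, a G-protein beta subunit (197.1 at −6713; 75.33 and 119.3), and Naglu, a lysosomal enzyme of heparan sulfate breakdown (188.6 at −3340; 99.25 and 88.95), had no listed start.

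The 2 peaks at H2-Aa had 219.9 at −3938 (112.4 and 104.5) and 214.1 at −8446 (98.11 and 115.5). H4c8, a histone H4 gene, completes the upstream list with 184.1 at −4925 (94.72 and 89). Its summit was 337 bp from the start of the tRNA gene n-TRtcg1. On the mm9 list, the chromosome 13 window at the same −4925, named Hist1h4h there, held both CTCAACC and GTCGCGACC. H2-Aa encodes a chain of an MHC class II molecule, which presents peptides to T cells. The neighbouring class II genes, looked up after these values were seen, had more: H2-DMb2 had 183.9 at −7700 (108 and 75.88), and H2-Ab1 had 173.9 at −1520 (76.51 and 97.86) and 139.5 at −5483 (67.36 and 72.56). Cd74, the invariant chain that escorts class II molecules, had 175.4 at +2860 (87.93 and 87.09) and 23.4 at +1207 (15.43 and 6.456). Of these 7 peaks, 6 were over 5 times the median of the 1712. The X and Y boxes of class II genes, of which the Y box is a CCAAT element, are known from B cells and macrophages. A CCAAT was present in all of the printed H2 windows, and in 33.2% of all 767 mm9 windows in the band. The only X-box sequence that was searched, GTTGCCA, was in none of the printed H2 windows. The printed H2-Ab1 window does hold a similar run, GTTGCTA. Other forms of the X box were not searched, so whether these windows hold an X box was not tested.

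Starts of non-coding genes were near 100 peaks (5.84%, 4.78 to 7.06%), close to the 6.18% of distal peaks. Of 28056 non-coding genes 12841 had no known strand, so both of their ends were counted and some may be 3′ ends. The 100 peaks lay at 68 long non-coding RNAs, 9 miRNAs, 7 snoRNAs, 7 pseudogenes and 2 transcribed pseudogenes, 4 snRNAs and 3 tRNAs. Their median signal was 29.5. After Dync1h1 the strongest was in Banp, which encodes the factor bound to the CGCG element, with 201.2 at +2644 (128.7 and 77.84), 29 bp from the start of Gm27011. Rpl17 had 193.2 at +1492 (123.3 and 67.35). Plod2, a lysyl hydroxylase of collagen, had 123.7 at +2789 (65.06 and 55.59). The nearest listed coding start was that of Car5a, 5704 bp away, for the Banp peak and of Plscr4, 85047 bp away, for Plod2. None was listed on chromosome 18, where Rpl17 lies. Unlisted coding starts may thus lie near these peaks.

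**Figure D2:**
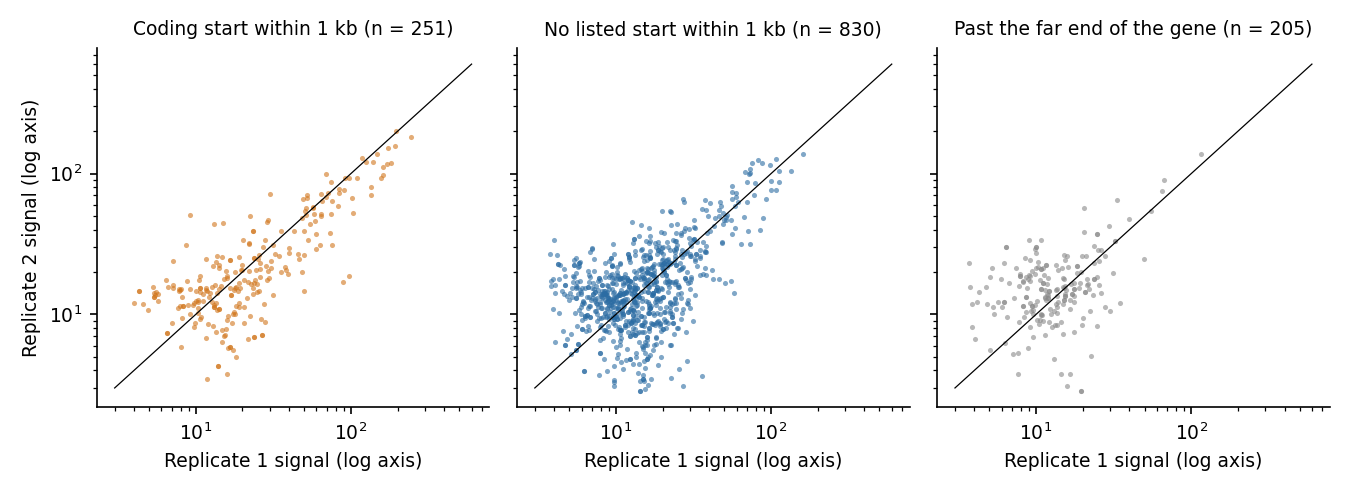
Signal of each peak in replicate 1 (horizontal, log axis) against replicate 2 (vertical, log axis), 1 point per peak that overlapped a peak in both lists; the line marks equal values. Strong peaks at coding starts lie along the line, while most peaks with no start and most past the far end of their gene lie in a round cloud at low signal.

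Across these peaks the rank correlation between replicates was 0.427 (Spearman's rho over 1712 peaks, with peaks missing from a list ranked last). For promoter peaks it was 0.738 and for distal peaks 0.284. Within the class it was 0.695 for the 264 at coding starts, 0.332 for the 1042 with no start, and 0.229 for the 222 past the far end. These are descriptions, since all peaks of a list share 1 library and were selected on both replicates. The largest disagreement with a match in both was at Rps24, where the peak at +8633 had 27.61 in the optimal list but ranked 288780 in replicate 1 (3.719) and 2375 in replicate 2 (23.25). At Actg1, cytoplasmic gamma-actin, the 2 peaks at +4326 and +4118 overlapped 1 replicate peak each, ranked 3103 in replicate 1 (19.34) and 288762 in replicate 2 (2.851). A peak overlapped a relaxed peak in both replicates in 94.6% of cases and a conservative IDR peak in 66.5%, against 82.0% for promoter and 67.5% for distal peaks.

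In 392 cases (22.9%, 20.9 to 24.96%) the nearest gene also had a promoter peak. Of all 21531 protein-coding genes 14.1% had one, and of distal peaks 15.3% had such a gene. The share was lower at coding starts (15.5%) than with no start (26.6%). A promoter peak was counted only at the outer 5′ end, so a peak at an internal start did not count as one. At Mcl1, for example, a peak 55 bp from a listed start was scored as having no promoter peak at its gene. Peaks that accompanied a promoter peak had a median signal of 23.8 and those that did not had 28.3. Within the 4141 strongest optimal peaks alone the share was 11.4%, counted with the promoter peaks among those only.

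Sequence was measured on the mm9 list, where 767 of 4613 peaks (16.6%) were in the same distance band, 367 of them upstream. Their median G+C content was 50.5% (47.5% in windows 500 bp away), 55.4% at coding starts, 58.4% at promoter peaks and 48.5% at distal peaks. The median CpG observed-over-expected ratio was 0.289, against 0.685 at coding starts, 0.252 with no start, 0.795 at promoter peaks and 0.229 at distal peaks. The classes overlapped: the quartiles of the ratio were 0.390 and 0.877 at coding starts and 0.158 and 0.422 with no start, and the 24 peaks at non-coding starts had a median of 0.424.

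The CCAAT box was in 255 of the 767 windows of 50 bp on each side of the summit (33.2%, 29.9 to 36.7%), and in 13.0% of windows 500 bp away. It was in 49.5% of promoter peaks and 28.7% of distal peaks. The 6-letter palindrome TCGCGA was in 86 windows (11.2%; 0.261% away from the summit). It was in 18.8% of the 383 strongest of these peaks and 3.65% of the 384 weakest, with 25.6% at coding starts, 8.52% with no start, 18.02% at promoter peaks and 7.01% at distal peaks. The BANP core CTCGCGAG, one form of it, was in 12.4% at coding starts, 2.25% with no start, 11.2% at promoter peaks and 1.18% at distal peaks. In the mm10 promoter windows of 300 bases, CTCGCGAG was in 17 of the 167 internal or other starts that hold one of these peaks (10.2%), in 9.78% of starts holding a promoter summit and in 0.277% of starts holding none. Since CTCGCGAG and TCGCGA were picked for their frequency at CHD2 summits, an excess at starts that hold a summit was fixed by that choice.

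The transposon-like run CTCAACC followed the opposite order. It was in 100 of the 767 windows (13.0%, 10.7 to 15.6%; 1.30% away from the summit), in 93 of 622 with no start (14.95%), in 7 of 121 at a coding start (5.79%), in 1.84% of promoter peaks and in 18.6% of distal peaks. The run lay a median of 12 bp from the summit. The median signal was 58.5 with it and 46.4 without, on the scale of the mm9 list. The CCAAT share was 15% with it and 36.0% without. GTCGCGACC was in 32 windows, and 29 of these also held CTCAACC. Of the 86 windows with the palindrome 56 lacked CTCAACC. The CCAAT box, the palindrome or the transposon-like run was present in 388 of the 767 windows (50.6%). The 6 sequences added after the values were seen are CTCGCGAG, the palindrome, both repeat runs, the extended CCAAT box and an X-box sequence. They were found by comparing summits with their flanks, so neither their low flank shares nor their excess at bound regions is independent evidence. Across the whole mm9 genome, 100 windows of 101 bases hold on average 0.974 matches of CTCAACC, 0.0405 of TCGCGA, 0.00472 of CTCGCGAG and 0.0027 of GTCGCGACC.

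**Figure D3:**
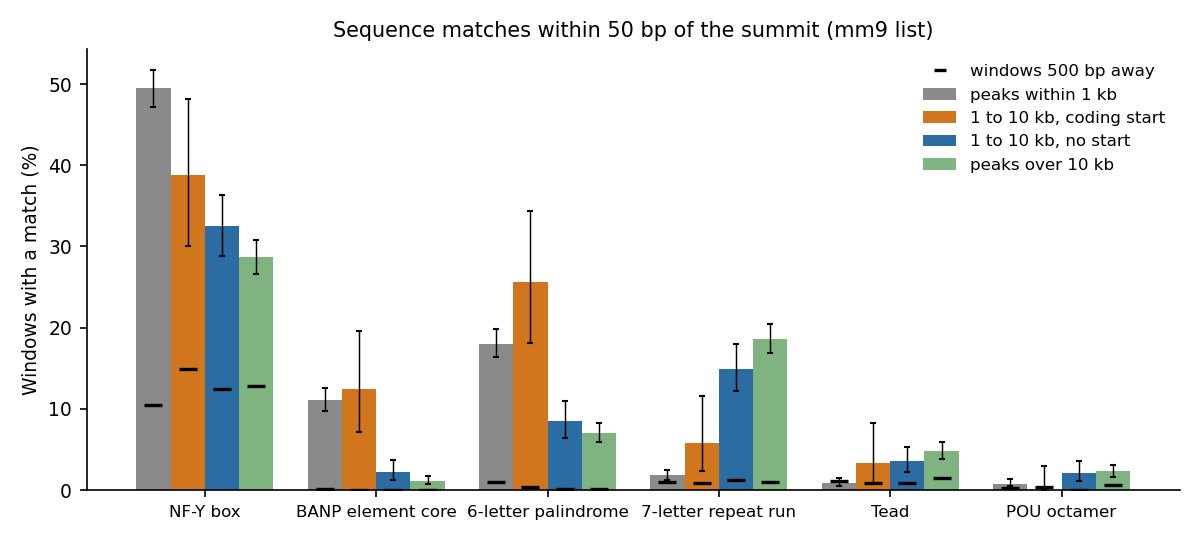
Percent of 101-base windows at peak summits of the mm9 list that hold each sequence, by class of peak, with exact 95% intervals as thin lines; short black bars show the percent in windows 500 bp away. The palindrome and the BANP core are most frequent at promoters and internal coding starts, and the 7-letter repeat run (all 3 chosen after the values were seen) at peaks with no start and distal peaks.

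Of sequences for factors of embryonic stem cells, the POU octamer ATTTGCAT was in 1.70% of the 767 windows (0.130% in flanks), the nuclear receptor sequence CAAGGTCA in 2.22% (0.652%), and the Tead element ACATTCC in 3.65% (0.848%). The Sox sequence CATTGT was in 5.74% and in 5.09% of flanks, Klf GGGTGTGG in 1.17% (1.04%) and Stat TTCCNGGAA in 0.522% (0.130%). The TATA box TATAAA was lower at the summit, at 3.52% against 6.39%. Distal peaks had higher shares of the octamer (2.30%), CAAGGTCA (2.78%), Tead (4.81%) and Sox (8.98%), so these matches are not particular to the band. Each was present in few windows, and 18 consensus sequences were searched from the start besides the 6 added.

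A total of 1332 of 21531 protein-coding genes (6.19%) were the nearest gene of a peak at 1 to 10 kb. Most (1045) had 1, 221 had 2, 45 had 3 and 21 had 4 or more. These counts rest in part on overlapping or adjoining calls: with summits at most 500 bp apart joined, only 6 of the 21 genes still had 4 or more regions. Mcl1, an anti-apoptotic member of the BCL2 family, had 6 in 5 such regions, from −3848 to +9355, with signals between 23.73 and 54.79. Enoph1 had 5 in 2 regions, all upstream between −6732 and −5073, with signals between 9.566 and 29.98. The nearest listed coding start for all of these was that of a neighbour, Hnrnpdl, 5267 to 6926 bp away. Rps12, a ribosomal protein gene, also had 6, in 4 regions. Tet1, which oxidises 5-methylcytosine, had 4, and so did Chd2 itself, from −1375 to +6462 with signals between 16.59 and 27.96. The other genes with 4 were Ccnd1, Cd79a, Egr1, Fgf18, H3f3b, Mat2a, Nanos1, Ptma, Rack1, Rhof, Rpl27a, Rplp1, Rps24, Zfp219 and Znfx1. Those at Mat2a, Rplp1 and Rps24 all lay past the far end, and those at Cd79a, Fgf18 and Znfx1 all upstream.

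Genes of naive pluripotency were frequent among them: 16 of 32 (50%, 31.9 to 68.1%) had a peak in the band, against 6.19% of all genes. Of the 16, 2 also had a promoter peak. Of the whole list 7 of 32 (21.9%) had a promoter peak, and of all protein-coding genes 14.1%. The 26 peaks split into 12 upstream and 14 on the gene-body side, 6 of which lay past the far end. Their signals ran from 12.01 to 67.81 with a median of 27.9, close to the 27.0 of all 1712. The members of the list were chosen with earlier results of these data known, so the share is a description.

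Pou5f1, which encodes the pluripotency factor Oct4, had 67.81 at −1956 (36.37 in replicate 1 and 32.81 in replicate 2) and 34.38 at −1198 (18.99 and 18.97). A weaker one at +3496 had 19.05 (11.71 and 6.817). Known enhancers of this gene lie in its upstream region. Nanog, a homeodomain factor that holds cells in the naive state, had 66.71 at −4904 (37.74 and 28.41) and 15.55 at −4172 (13 and 14.45). Tdgf1, a co-receptor for Nodal, had 52.51 at −1424 (27.36 and 26.68). These 3 led the list in both replicates.

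Mybl2, a transcription factor of the cell cycle, had 39.51 at −2072 (20.75 and 16.91), and Dppa3, a protein that protects DNA methylation in the zygote, had 35.79 at −1655 (17.22 and 14.79). Lin28a, an RNA-binding repressor of let-7, had 34.46 at +7368 (10.19 and 19.14). Klf2, a Krüppel-like factor, had 33.59 at +2312 (17.97 and 12.16). Below these were Sall4, Tet1, Tbx3, Klf4, Dppa5a, Utf1, Tfcp2l1 and L1td1, among others. The Klf4 and Dppa5a pairs share 1 replicate peak each. Genes of the list with none in the band include Sox2, Esrrb, Zfp42, Nr0b1 and Prdm14.

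**Figure D4:**
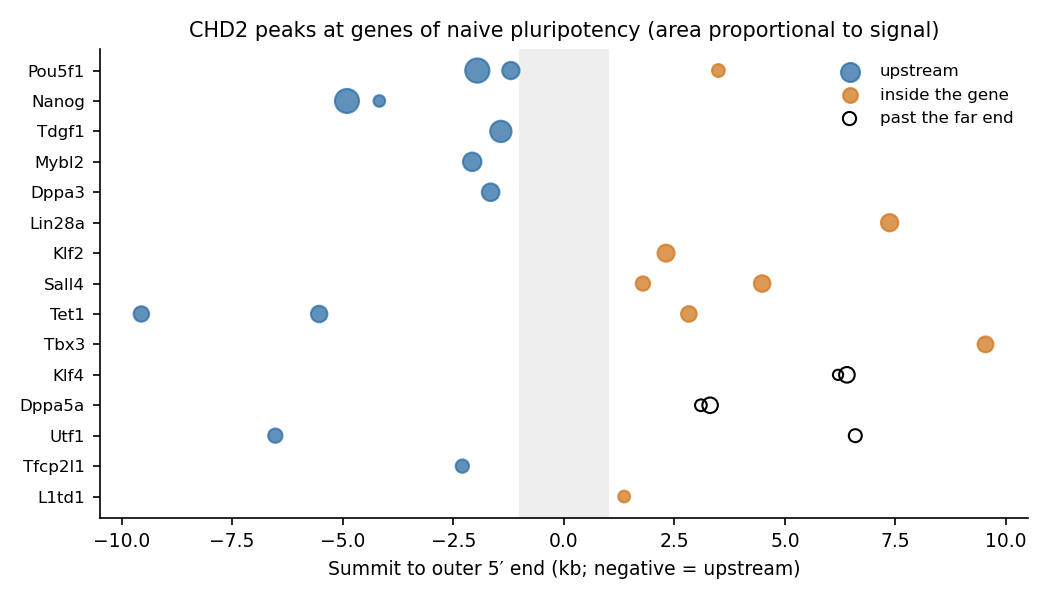
Position of the peaks at genes of naive pluripotency that overlapped a peak in both replicates (24 peaks at 15 genes), in kb from the outer 5′ end of the gene, with point area proportional to the signal. The strongest points are upstream, at Pou5f1 (67.81) and Nanog (66.71), and the 5 open circles lie past the far end of the gene.

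The other regulatory lists gave 9 of 24 immediate early genes (37.5%), 7 of 20 of Nodal and BMP signalling (35.0%), 6 of 17 of glycolysis and glucose uptake (35.3%), 8 of 25 cell cycle regulators (32.0%), 7 of 22 of FGF-ERK and LIF signalling (31.8%) and 5 of 16 of Wnt signalling (31.2%). Shares were lower among DNA methylation and polycomb genes (2 of 19, 10.53%), chromatin remodellers (3 of 23, 13.04%) and heat shock genes and chaperones (2 of 24, 8.333%). These last shares lay above the 6.19% of all genes, but their 95% intervals included it. The intervals of the lists named before them, from immediate early genes to Wnt signalling, did not include it. Their lowest limit was 11.0%, for Wnt signalling. The lists were chosen with earlier results of these data known, so the shares are descriptions. Of the chaperone list 14 of 24 had a promoter peak (58.33%), against 14.1% of all protein-coding genes. Genes of other tissues had 1 each: Fn1 in 21 fibroblast markers, Dlg4 in 22 neuronal genes and Mb in 24 genes of liver, muscle and blood. These lists are small and their intervals wide, and expression level was not measured here.

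Srf, the serum response factor, had the strongest peak of the immediate early list, with 122.2 at +5353 (70.59 and 50.02), and a second of 34.85 at +1968 (15.9 and 18.67) near an internal start. Atf3, a stress-induced bZIP factor, had 71.14 at −1690, with unequal replicates of 57.37 and 14.17. Egr1, a zinc-finger factor induced by growth signals, had 48.28 at +3932 (32.05 and 33.31), 183 bp past its far end. The Egr1 call at +4183 (37.41) shared the same replicate peaks. Myc had 34.17 at −1924 (10.29 and 20.31). Ier2 and Junb had peaks past their far ends only.

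Ccnd1, cyclin D1 and a target of Wnt signalling, had 143.6 at −3703 (58.57 and 83.02) and 3 weaker ones. Kdm2b, a histone demethylase of a polycomb complex, had 182.3 at −5363 (73.01 and 108.3), the highest of all lists after Rpl17. Slc2a3, a glucose transporter, had 82.36 at −8727 (40.61 and 39.55). Id3, an inhibitor of bHLH factors and BMP target, had 50.91 at +3134 (27.86 and 25.86), past its far end. In the FGF-ERK and LIF list no peak exceeded 37.45, the value at Grb2, an adaptor of receptor tyrosine kinases, at +9042 (14.13 and 22.27), 21 bp from a listed internal start. Socs3, an inhibitor of LIF signalling, had 37.06 at −5317 (14.9 and 25.37), Spred2, an inhibitor of the ERK pathway, 36.75 at −4765 (19.62 and 15.47), and Lifr, the LIF receptor, 32.95 at −8516 (18.01 and 14.89). In the Nodal and BMP list, after Id3, Gdf3, a ligand of the TGF-beta family, had 38.93 at +1317 (22.16 and 20.5). Lefty2, a secreted inhibitor of Nodal, had 29.67 at −4283 (17.74 and 13.72), and Id4 28.07 at −8347 (8.857 and 15.86).

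Of the Wnt list, Tcf7l1, a repressor that acts on Wnt targets, had 37.45 at +1464 (21.52 and 22.49), Fzd5, a receptor, 27.26 at +4840 (10.04 and 16.38), and Ctnnb1, beta-catenin, 25.16 at +5392 with a match in replicate 2 only (26.64). Of the glycolytic enzymes, Eno1 had 28.7 at +3537 (16.46 and 15.64), Ldhb 25.24 at −3740 (26.88 and 3.083) and Gapdh 25.13 at +1748 (12.58 and 11.01). Among cell cycle regulators Mycl, a MYC family factor, had 50.98 at +3170 (18.58 and 32.52) and Mycn 45.02 at −1761 (28.31 and 17.43). Ccne1, cyclin E1, had 38.24 at −4689 (24.13 and 13), and Cdkn1a, the p21 inhibitor of cyclin-dependent kinases, 28.64 at −9895 (12.64 and 17.01). Mtf2, an accessory subunit of a polycomb complex, had 36.46 at −5062 (22.41 and 11.31). Among remodellers the highest were Chd9 with 28.34 at +4819 (11.57 and 14.23) and Chd2 with 27.96 at +6462 (22.38 and 7.221).

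**Figure D5:**
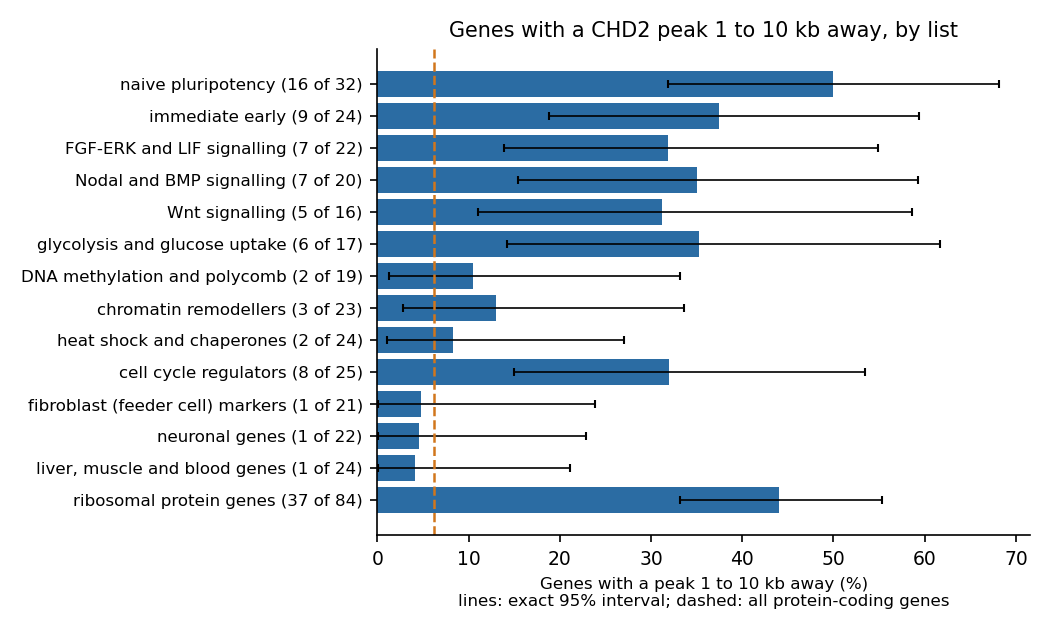
Percent of the genes in each list that are the nearest gene of a peak at 1 to 10 kb, with exact 95% intervals as thin lines; the dashed line marks all protein-coding genes (6.19%). Naive pluripotency (50%) and ribosomal protein genes (44.0%) are highest, and the lists of other tissues lie at or under the line.

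Ribosomal protein genes, a list made from symbols after the values were seen, had a different layout. Of 84 such genes 37 (44.0%, 33.2 to 55.3%) had a peak in the band, with 80 peaks in all. Only 3 were upstream, and 72 lay past the far end of the gene. Of genes under 10 kb long, 147 of 7736 (1.9%) had a peak past the far end, and of such ribosomal protein genes 33 of 83 (39.8%, 29.2 to 51.1%). They supplied 72 of all 222 peaks past the far end (32.4%). The median distance past the end was 1274 bp, and 1482 bp at other genes.

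At Rps12, a protein of the small subunit, the strongest lay 568 bp past the end with 42.32 (24.68 and 18.57), and another 2776 bp past it with 38.31 (6.372 and 30.28). Rps20 had 39.13 at 370 bp past (16.03 and 21.57) and Rpl13 had 38.11 at 496 bp past (23.66 and 17.83). Rpl30 had 36.19 at 1999 bp past (9.974 and 29.97). Replicate 1 and replicate 2 were unequal at several of them.

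The 72 peaks had medians of 22.4 in the optimal list, 9.97 in replicate 1 and 15.3 in replicate 2, and their median rank was 13832 in replicate 1 and 4816 in replicate 2. The other 150 past-the-end peaks had medians of 26.5, 13.6 and 14.8 and median ranks of 5653 and 5322. The ribosomal group was therefore placed lower in replicate 1's list than in replicate 2's, and 27.8% of it was among the strongest 8282 of both replicates, against 46.7% of the others. With the strongest 8282 peaks of replicate 2 alone, 43 of 84 ribosomal protein genes had a peak in the band, and with those of replicate 1 alone 26. Of the chaperone list, Hspa8 had 74.02 at +5431 past its far end, with 20.37 in replicate 1's list and 56.57 in replicate 2's. Hsp90aa1 went the other way, with 18.35 at +6187 past its far end and 14.44 and 3.8 in the replicates.

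The limits of the band are sharp only by definition. Just over 1000 bp lay Gtf3c6 with 30.19 (13.86 and 9.211) and Slc25a36 with 19.22 (15.45 and 4.173), both at −1001, and just under it Eno3 with 27.04 (6.177 and 16.29) and Lekr1 with 23.24 (12.03 and 15.39), both at −999. Just under 10000 bp lay Nmd3 with 20.72 at −9997 (9.299 and 11.02) and Mymx with 18.1 at −9989 (13.25 and 9.024), and just over it 4933440N22Rik with 20.49 at −10057 (10.47 and 9.656) and Ipmk with 39.67 at +10060 (16.35 and 19.12).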

How the data were processed

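The authors deposited peak lists of CHD2 ChIP-seq in ES-E14 cells: optimal and conservative IDR lists, relaxed lists of each replicate and of the pool (300000 peaks each), all on mm10, and a separate list on mm9. The peak signal is the deposited signal value of the authors' caller. A caller, aligner or normalization is not given in the sources used here, and a control was not analysed here. Read depth is thus unknown. Both replicates form 1 group, so no test was made, and replicate values are given beside the optimal list for most named peaks.

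Summits were measured to outer 5′ ends of 21531 of 21887 protein-coding genes of RefSeq GRCm38.p6 (98.4%). The strand came from the RefSeq start table for 17492 and from GENCODE M1, by symbol, for 4039, and 14707 of 14747 genes with both agreed. Listed coding starts came from the RefSeq table, which is not complete and lists none on chromosome 18 (46 of the 1712 peaks). For the 12841 non-coding genes with no known strand, both ends were counted as starts. Overlap meant 1 bp or more. A peak's replicate value is that of the highest peak it overlaps in that replicate's list, so neighbours can share one. Shares have exact Clopper-Pearson 95% intervals. Summit windows and their shares of matches came from the mm9 list, the build of the genome that was used. On mm10, sequence came only from the RefSeq table of starts (300 bases each). No coordinates were moved between builds.

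The peaks and lists were chosen with earlier results of these data known. The text names, by rule, the 10 strongest peaks of each side, the 5 strongest at coding and at non-coding starts, up to 4 genes per list, genes with 4 or more peaks (by example), the peaks at both limits and the 3 least alike between replicates. Others are named as seen afterwards, and some genes that meet the rule are not reported here. Alternatives were the conservative list, the 4141 strongest peaks, each replicate alone, the mm9 list, other distance limits, other gene types and wider windows. Python 3.11.15, pandas 2.3.3, numpy 2.4.6, scipy 1.17.1 and matplotlib 3.10.9 were used, and the distance and overlap steps were tested on simulated data.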

Additional observations from a re-analysis of the deposited data

How the results depend on the processing

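With each replicate alone (its 8282 strongest peaks), the share of peaks at 1 to 10 kb was 20.7 to 21.6%, the ratio of promoter signal to theirs was 1.36 to 1.40, and the share of genes with such a peak was 6.68 to 6.88%. Among the 4141 strongest optimal peaks the share in the band was 17.7%, the ratio to distal peaks 1.11, the ratio of promoter peaks to these 1.38, the share near another start 27.4%, the share whose gene had a promoter peak 11.4%, and the share of genes 3.20%. On the mm9 list these were 16.6%, 1.08, 1.43, 18.9%, 15.1% and 3.22%, with 47.9% upstream. A lower limit of 2500 bp gave 14.3% in the band and 44.0% upstream, and an upper limit of 5000 bp gave 12.5% and 37.8%. With 5′ ends of all gene types the band held 25.4%, and 15.6% had a gene with a promoter peak. Counting other starts within 500 bp gave 15.9% near one. The conservative list gave 5.63% of genes. The share found in both replicates was 94.6% over all relaxed peaks, 66.4% with 2 times as many strongest peaks, and 41.8% where 50% of the peak had to overlap. The CCAAT share was 42.4% within 100 bp and 40.7% in the 383 strongest. The causes of these shifts were not tested, beyond what each construction fixes. The other 22 of 53 alternatives stayed within the interval or spread. Added after seeing the data, the share of naive pluripotency genes did not leave its interval, while that of ribosomal protein genes fell to 31.0% with replicate 1 alone. The share with the palindrome was 18.8% in the 383 strongest. The share of gene-body peaks past the far end was 18.2 to 24.9% with 1 replicate. No paired analysis was possible because the series has 1 group. Read depth is unknown, an incomplete start table leaves internal starts uncounted, and the nearest gene need not be the gene a peak acts on.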
